A study of Mus musculus with 3 samples.

Results

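The S100 genes encode small calcium-binding proteins, and 8 of them were described here in bone-marrow-derived macrophages: S100a1, S100a4, S100a6, S100a8, S100a9, S100a10, S100a11 and S100a13. They were taken by gene symbol from a list of 8 names, and all 8 were found among the 55536 genes of the tables. Polyadenylated RNA of macrophages grown from C57BL/6J bone marrow was read in 3 libraries, biological replicates 1, 2 and 3. They form 1 group, with lipid A, the endotoxin part of lipopolysaccharide, at 100 ng/ml for 0 minutes, so each value is a level before the stimulus. Each library has a biosample of its own but all carry 1 donor record, and the labels leave unsaid how many animals stand behind the cultures. The spread between libraries may therefore be partly technical. No allele or transgene is named, sex and age were not collected, and there is no second group to set the levels against.

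An S100 protein is usually a dimer whose subunits carry a pair of EF-hand loops. Calcium binding opens a cleft through which the dimer grips a target, such as an annexin, a myosin heavy chain or an ion channel. S100A8 and S100A9 pair with each other as calprotectin, which fills the cytoplasm of neutrophils and is also made by monocytes, and which binds zinc and manganese and signals through TLR4 and the receptor RAGE when released. Most S100 genes of the mouse lie in 1 cluster on chromosome 3, next to the genes of the skin barrier.

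Depth was 27946070, 29779410 and 53447437 expected counts for replicates 1, 2 and 3, so that a gene with no count could still stand at up to 3 counts (0.107, 0.101 and 0.0561 CPM, counts scaled to the library total). The macrophage label was set against 10 markers, of which 10 stood at 1 TPM (a level per transcript length, scaled to the same sum in each library) or more in every library. The M-CSF receptor gene Csf1r stood at 590.9, 1279 and 805.6 TPM and Adgre1, which encodes F4/80, at 579.2, 647.3 and 340.5 TPM in replicates 1, 2 and 3. Of 10 lymphoid markers 1, the B cell receptor component Cd79b, reached 1 TPM in every library, with 1.48, 2.42 and 3.02 TPM, and the T cell marker Cd3e had 3, 0 and 2 counts. The stromal markers summed to 2.63, 0.67 and 1.37 TPM.

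All 8 S100 genes reached 1 TPM in every library, and 10 TPM too. The same held at 1 TPM for 19.0% of all genes and for 44.8% of the 22028 protein-coding genes, so detection by itself is common among protein-coding genes. Their median level of 144.1 TPM stood beside a median of 18.6 TPM over the 10548 genes detected in every library. The 8 genes were chosen with earlier results of these data known, so their detection and high median are a description. Together they summed to 1543, 1474 and 1597 TPM in replicates 1, 2 and 3. On TMM-scaled counts (a factor for each library that brings the bulk of genes level) the sum was 330.7, 341.4 and 441.4 CPM, highest in replicate 3. The makeup of the sum in TPM differed between libraries. S100a1 took 11.7% of it in replicate 1, 41.1% in replicate 2 and 37.2% in replicate 3, and S100a8 with S100a9 took 9.85%, 2.20% and 16.6% (9.56% ± 7.23, SD, n = 3, and 6.02% without replicate 3).

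**Figure D1:**
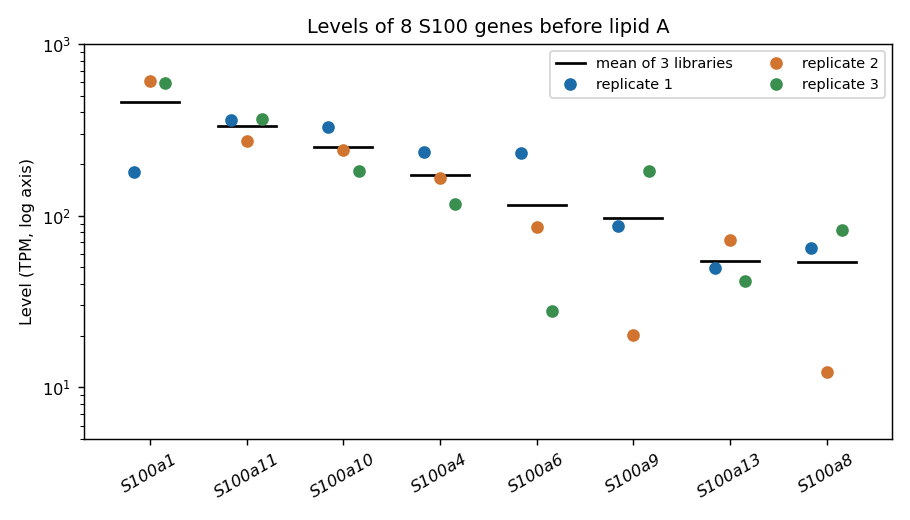
Levels of the 8 S100 genes in TPM on a log axis, with 1 point for each library and a bar at the mean of 3 libraries, ordered by mean. S100a11, S100a10, S100a4 and S100a13 have points close together, while S100a9 runs between 20.1 and 182.8 TPM and S100a6 between 27.9 and 232.6 TPM.

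The order by mean level was S100a1, S100a11, S100a10, S100a4, S100a6, S100a9, S100a13 and S100a8. The plot of levels shows how far the libraries of neighbours overlap. S100a11 stood above S100a10, S100a10 above S100a4 and S100a4 above S100a6 in 3 of 3 libraries, each with an exact two-sided sign-flip p of 0.25 on the log2 TPM scale (0.583 after Benjamini-Hochberg adjustment over the 7 neighbour pairs). With 3 libraries 0.25 is the smallest p this test can give. S100a4 and S100a6 were nearly equal in replicate 1, at 236.4 and 232.6 TPM. The kallisto-format table, a second quantification of the same reads, reversed them there, at 164.7 and 177.6 TPM. The other 4 neighbour pairs changed places between libraries, with exact p from 0.75 to 1.00 and an adjusted p of 1.00. Of all 28 pairs of the S100 genes, 18 had the same order in every library and 10 did not.

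The libraries differed far more in some S100 genes than in others. On TMM-scaled counts, 4 members differed more than 2-fold between their highest and lowest library, beside 33.3% of the detected genes. The same 4, S100a9, S100a8, S100a6 and S100a1, also differed more than 4-fold, beside 5.93% of detected genes. Their folds were 11.9, 8.86, 8.27 and 4.25, and those of S100a4, S100a11, S100a13 and S100a10 were 1.93, 1.78, 1.44 and 1.40. The median fold was 2.86 over the members and 1.69 over all detected genes. The high library was not the same one for the 8 genes: 3 were highest in replicate 1, 1 in replicate 2 and 4 in replicate 3, beside 34.3%, 31.9% and 33.8% of detected genes. Likewise 2 were lowest in replicate 1, 3 in replicate 2 and 3 in replicate 3, beside 34.0%, 32.4% and 33.6%. Some of these calls depend on the scale or on a near tie. S100a13 was lowest in replicate 1 here but in replicate 3 in TPM, and S100a10 was nearly equal in replicates 2 and 3.

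**Figure D2:**
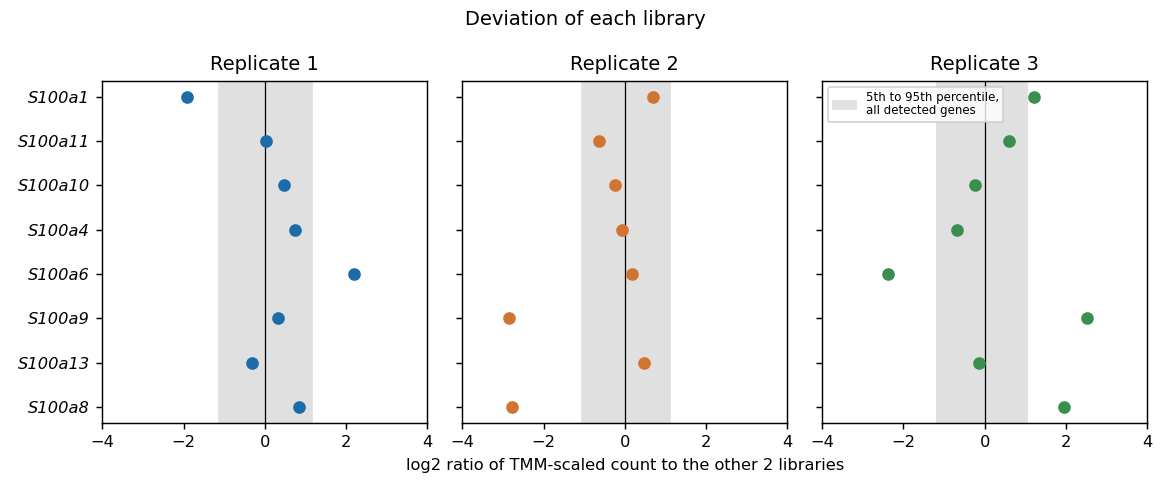
For each replicate, the log2 ratio of the TMM-scaled count of each S100 gene to the geometric mean of its value in the other libraries (points), with a grey band for the 5th to 95th percentile of the 10548 detected genes in that replicate. S100a6 lies above the band in replicate 1 and below it in replicate 3, S100a8 and S100a9 lie below it in replicate 2 and above it in replicate 3, and S100a1 lies below it in replicate 1 and above it in replicate 3.

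S100a9 and S100a8, the calprotectin subunits, were lowest in the same library. S100a9 (ENSMUSG00000056071.12, chromosome 3, 90692632 to 90695721, minus strand, mm10) had 86.9, 20.1 and 182.8 TPM from 411, 102 and 1922 counts in replicates 1, 2 and 3, a mean of 96.6 ± 81.8 TPM (SD, n = 3). S100a8 (ENSMUSG00000056054.9, chromosome 3, 90668978 to 90670035, plus strand) had 65.1, 12.3 and 83.0 TPM from 277, 56 and 787 counts, a mean of 53.5 ± 36.7 TPM. Replicate 2 was low for both genes, and replicate 3 was highest for both. Against the other libraries, the TMM-scaled count of S100a9 stood at a log2 ratio of 0.33, -2.85 and 2.51 in replicates 1, 2 and 3, and that of S100a8 at 0.84, -2.78 and 1.94.

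The range of this pair rests most on replicate 2 and less on replicate 3. The fold of S100a9, 11.9 over all libraries, was 2.73 without replicate 2 and 4.35 without replicate 3. The fold of S100a8, 8.86 over all libraries, was 1.66 without replicate 2 and 5.32 without replicate 3. The mean of S100a9 was 53.5 TPM without replicate 3. The ratio of S100a9 to S100a8 in TPM was 1.34, 1.63 and 2.20, which is above 1 in 3 of 3 libraries and has a narrower range, 1.65-fold, than either gene alone. In these bulk libraries, fewer cells that make the pair and less of its RNA in each cell cannot be told apart.

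Stretches of the S100a9 and S100a8 promoters are shown because the TATAAA motif (capitals, searched on both strands) lies at different places in them. Positions count from the RefSeq start as +1, the base before it being -1, and the sequences come from the RefSeq promoter table on GRCm38.p6. For S100a9 the stretch is chr3:90695712-90695821 on the minus strand, and the match begins at position 1, at the annotated start itself. For S100a8 it is the 30 bases of chr3:90669029-90669058 on the plus strand, and the match begins at position -30. GENCODE places the start of S100a8 upstream of the RefSeq one, so that in GENCODE these 30 bases fall in the first exon.
S100a9: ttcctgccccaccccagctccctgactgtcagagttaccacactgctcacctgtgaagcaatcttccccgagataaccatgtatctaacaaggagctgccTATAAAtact
S100a8: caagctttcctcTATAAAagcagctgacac
A TATAAA anywhere in the 300 bases was found in 13.6% of the 32851 promoters of the table, and 1 on the gene's strand beginning 20 to 40 bases before the start in 1.99%. The motif TTGCNNAA, in the form bound by C/EBP factors, was found at position -236 of S100a9, in no other of the 7 members in the table, and in 10.8% of all promoters.

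Markers of neutrophils moved with the pair in part. Of 20 neutrophil markers, 6 reached 1 TPM in every library, 6 of these 6 differed more than 2-fold between libraries, 4 of the 6 were lowest in replicate 2 and 5 were highest in replicate 3. Ngp, a neutrophil granule protein, had 13.8, 1.95 and 57.5 TPM, and lactoferrin (Ltf) had 3.97, 1.33 and 10.7 TPM in replicates 1, 2 and 3. Mmp8, the neutrophil collagenase, had 26.0, 15.5 and 25.3 TPM. Most genes of the list, many of them with few counts, were lowest in replicate 2 on TMM-scaled counts, but some were not. Csf3r, the G-CSF receptor, had 12.7, 51.3 and 73.2 TPM. Padi4, which citrullinates histones in neutrophils, ran against the pair with 5.28, 7.76 and 2.21 TPM, highest in replicate 2 and lowest in replicate 3. Prtn3, the gene of proteinase 3, had 0.75, 1.43 and 0.77 TPM from 9, 14 and 19 counts, also highest in replicate 2. The whole list summed to 76.5, 83.0 and 189.9 TPM, with Csf3r the largest part in replicates 2 and 3. Of the defining markers Ly6g had 0 counts in every library, the elastase gene Elane had 7, 1 and 19 counts and the myeloperoxidase gene Mpo 20, 3 and 161 counts. S100a9 stood 6.30, 10.3 and 3.18 times as high as Ngp in TPM in replicates 1, 2 and 3. The part of such cells in the range of S100a8 and S100a9 was not tested.

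The monocyte list had its highest sum where S100a8 and S100a9 were lowest, but its defining markers Ly6c2 and Ccr2 were highest in replicate 3. Of its 8 genes 6 reached 1 TPM in every library, and it summed to 86.6, 260.4 and 117.8 TPM, with Ms4a4c, F13a1 and Chil3 the highest. Ms4a4c alone had 35.5, 154.2 and 48.8 TPM in replicates 1, 2 and 3. Of the 6 genes, 3 were highest in replicate 2 and 2, the defining markers Ly6c2 and Ccr2, were lowest there on TMM-scaled counts. Ly6c2 had 7.62, 6.70 and 13.6 TPM and Ccr2 10.1, 10.1 and 10.9 TPM. Replicates 1 and 2 were close for both, at log2 ratios of -0.42 and -0.53 for Ly6c2 and -0.22 and -0.24 for Ccr2. Among C/EBP and PU.1 factors, which drive myeloid genes, 7 of 9 reached 1 TPM in every library and 2 of these 7, Cebpb and Cebpd, differed more than 2-fold. Cebpe, a factor of late granulocyte development, had 0.33, 0.05 and 0.59 TPM from 6, 1 and 23 counts. Cebpb had 18.5, 28.6 and 2.95 TPM and Cebpd 4.28, 4.33 and 1.03 TPM, both lowest in replicate 3, where S100a8 and S100a9 were highest. Cebpa had 81.6, 81.5 and 41.5 TPM and Spi1, which encodes PU.1, 229.8, 314.0 and 310.8 TPM.

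**Figure D3:**
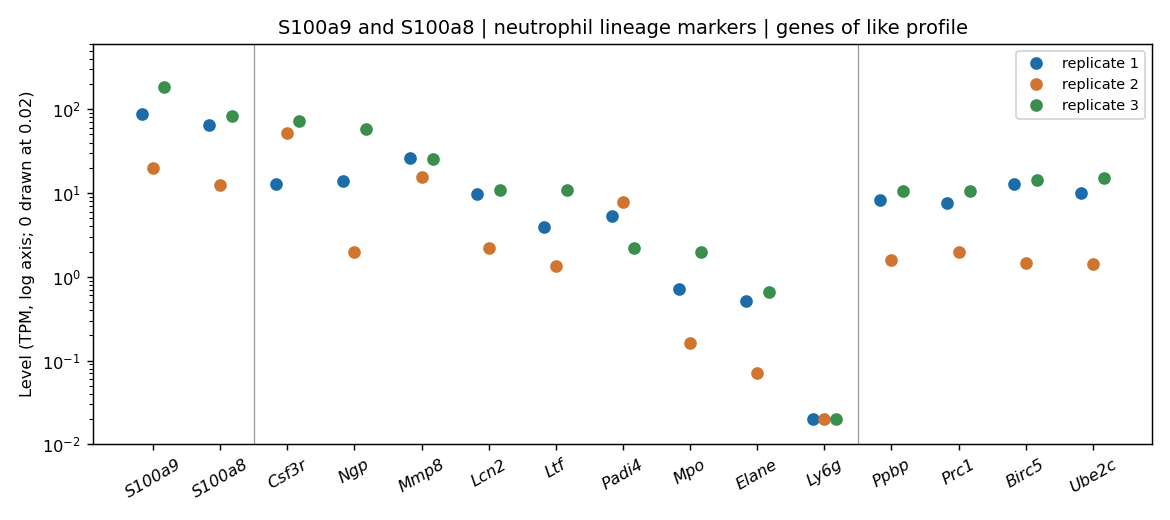
Levels in TPM on a log axis, with 1 point for each library, of S100a9 and S100a8, of the 6 neutrophil markers that reached 1 TPM in every library with the defining markers Mpo, Elane and Ly6g, and of Ppbp, Prc1, Birc5 and Ube2c, which were chosen for a like profile; values of 0 are drawn at 0.02. Among the markers Csf3r is lowest in replicate 1, Padi4 is lowest in replicate 3, Ly6g is at 0 throughout, and the other 6 are lowest in replicate 2.

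Likeness of profile was measured as the root mean square (RMS) difference of log2 TMM-scaled counts, each gene centred on its own mean over the 3 libraries. With 3 points per gene it describes these libraries only. The protein-coding genes nearest to S100a8 were Ppbp, a chemokine of platelets, at 0.0437, Prc1, which bundles spindle microtubules in cell division, at 0.0892, and Birc5, which encodes survivin, at 0.155. Nearest to S100a9 were Gm20721 at 0.114, Prc1 at 0.285 and Ube2c, an enzyme that acts with the anaphase-promoting complex, at 0.285. Prc1 had 7.50, 1.95 and 10.6 TPM and Ppbp 8.16, 1.60 and 10.4 TPM in replicates 1, 2 and 3. Of the 9874 other protein-coding genes compared, 9 lay within 0.25 of S100a8 and 1 of S100a9. S100a8 and S100a9 lay 0.295 from each other, and only S100a4 and S100a10, at 0.203, were nearer among the 28 pairs.

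The receptors and targets named for calprotectin were mostly present. Of 6 receptor genes 5 reached 1 TPM in every library, and 3 of these 5 differed more than 2-fold. Tlr4 had 60.6, 63.6 and 45.5 TPM, a fold of 1.11 on TMM-scaled counts. Ager, which encodes RAGE, had 0.23, 0.31 and 0.18 TPM from 5, 7 and 9 counts and was the receptor gene below 1 TPM. Cd36, a scavenger receptor that takes up fatty acids, had 1133, 108.2 and 635.3 TPM, low in replicate 2 as S100a8 and S100a9 were, with a fold of 10.7. Emb, embigin, had 42.3, 160.5 and 84.5 TPM, highest in that library, and Bsg, basigin, 278.4, 280.1 and 325.0 TPM. Among subunits of the phagocyte oxidase, to which calprotectin brings arachidonic acid, Cyba had 1206, 1765 and 665.5 TPM and Cybb 162.8, 386.2 and 239.2 TPM.

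S100a6 was lowest in replicate 3, where S100a8 and S100a9 were highest. It encodes calcyclin, which binds the ubiquitin ligase adaptor CacyBP and annexins. The gene (ENSMUSG00000001025.8, chromosome 3, 90612882 to 90624181, plus strand) had 232.6, 86.1 and 27.9 TPM from 1720, 730 and 354 counts in replicates 1, 2 and 3, a mean of 115.5 ± 105.5 TPM (SD, n = 3) that was 57.0 TPM without replicate 1. Replicate 1 was highest and replicate 3 lowest, at log2 ratios of 2.20 and -2.37 to the other libraries. The fold of 8.27 was 3.25 without replicate 1, 8.31 without replicate 2 and 2.55 without replicate 3. Of all pairs of members, S100a6 and S100a9 were the least alike, at an RMS of 2.33. The genes nearest to S100a6 were Siva1, a regulator of apoptosis, at 0.0314, Sssca1 at 0.118 and the sterol synthesis gene Hsd17b7 at 0.136, and 7 of the 9874 lay within 0.25. Cacybp had 64.9, 53.6 and 85.6 TPM, highest where S100a6 was lowest.

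S100a4, which lies near S100a6, shared its direction with a smaller range. It encodes a protein that binds the heavy chain of non-muscle myosin IIA and loosens its filaments. The gene (ENSMUSG00000001020.8, chromosome 3, 90603771 to 90606045, plus strand) had 236.4, 164.7 and 117.1 TPM in replicates 1, 2 and 3, a mean of 172.7 ± 60.0 TPM, and was likewise highest in replicate 1 and lowest in replicate 3. Its TMM-scaled count stood at log2 ratios of 0.74, -0.06 and -0.68, and 63.9% of detected genes had a smaller range. The ratio of S100a6 to S100a4 in TPM was 0.984, 0.523 and 0.238. Myh9, the myosin heavy chain it binds, had 171.8, 109.9 and 132.9 TPM. S100a4 is also known as a fibroblast marker: of 10 stromal markers 0 were at 1 TPM in every library, and Col1a1 had 18, 0 and 30 counts and Dcn 4, 0 and 12. The stromal sum was highest in replicate 1, as S100a4 and S100a6 were, at under 3 TPM. It was lowest in replicate 2, while S100a4 and S100a6 were lowest in replicate 3. Its part in their ranges was not tested. The nearest profiles to S100a4 were those of Hacd3, Igsf8 and Fastkd3, and 1383 genes lay within 0.25.

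The S100a4 promoter stretch is shown because it holds a TATAAA, in capitals, at position -31, close to its place in S100a8. It is chr3:90603670-90603779 on the plus strand.
S100a4: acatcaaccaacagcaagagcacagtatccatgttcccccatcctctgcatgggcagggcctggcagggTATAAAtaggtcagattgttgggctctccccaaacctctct
S100a4, S100a8 and S100a9 were the members with a TATAAA among the 7 in the promoter table.

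S100a1 had the highest mean level, and its range rested on replicate 1. In that library S100a1 stood below S100a11, S100a10, S100a4 and S100a6 in TPM. It encodes a protein best known from heart and skeletal muscle, where it binds the ryanodine receptor and the sarcoplasmic calcium pump. The gene (ENSMUSG00000044080.9, chromosome 3, 90511034 to 90514392, minus strand) had 179.8, 605.9 and 594.3 TPM from 1381, 4975 and 10002 counts in replicates 1, 2 and 3, a mean of 460 ± 242.7 TPM (SD, n = 3). Replicates 2 and 3 lay close together and replicate 1 far below them, at a log2 ratio of -1.91. The highest was replicate 3 on TMM-scaled counts and replicate 2 in TPM. Without replicate 1 the mean was 600.1 TPM and the fold between the libraries left was 1.28, against 4.25 with it. Of its muscle targets Ryr2 had 0 counts and Ryr1 had 1, 4 and 9 counts. The nearest profiles were those of Rab9, a GTPase of late endosomes, at 0.0295, Calcoco1 at 0.0631 and the lysosomal channel gene Mcoln3 at 0.0668. Rab9 had 22.1, 76.3 and 72.7 TPM.

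S100a13 lies head to head with S100a1, and the levels of the neighbours differed. It encodes a protein that helps to export FGF1 and interleukin 1 alpha, which lack a signal peptide. The gene (ENSMUSG00000042312.9, chromosome 3, 90514435 to 90524581, plus strand) had 49.3, 71.8 and 41.7 TPM in replicates 1, 2 and 3, a mean of 54.3 ± 15.7 TPM. Its fold was 1.44 on TMM-scaled counts, with 30.4% of detected genes below it in range, and 1.72 in TPM. S100a1 stood 3.65, 8.44 and 14.3 times as high as S100a13 in TPM, higher in 3 of 3 libraries. Chtop, on the other side of S100a1, had 50.2, 48.8 and 35.0 TPM. Of the genes of its cargo, Fgf1 had 4.46, 0.50 and 2.51 TPM from 167, 10 and 305 counts, and Il1a had 5.56, 9.70 and 24.3 TPM. Their folds on TMM-scaled counts were 18.6 for Fgf1 and 5.46 for Il1a. The genes nearest in profile were Ripk2, Dapp1 and Gm28048, and 2415 genes lay within 0.25.

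The stretch between S100a1 and S100a13 is shown because it is all that separates the annotated starts of genes so unlike in level. GENCODE leaves 42 bases between them, chr3:90514393-90514434, printed on the plus strand, the strand of S100a13.
S100a1 to S100a13: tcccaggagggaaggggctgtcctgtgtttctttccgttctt
It holds neither TATAAA nor GGGCGG, and neither motif was found in the 300 bases around the RefSeq start of S100a13 or that of S100a1, which lies inside the first exon that GENCODE gives S100a1.

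S100a10 and S100a11 lie next to each other at the far end of the cluster and both encode partners of annexins. S100a10, also called p11, does not need calcium and joins annexin A2 in a tetramer that binds plasminogen at the cell surface. S100a10 (ENSMUSG00000041959.14, chromosome 3, 93555080 to 93564643, plus strand) had 330.0, 239.9 and 183.2 TPM in replicates 1, 2 and 3, a mean of 251.1 ± 74.0 TPM. Its fold of 1.40 on TMM-scaled counts was the smallest of the members on that scale, while its fold in TPM was 1.80. S100a11, which binds annexin A1 and other annexins during membrane repair, lies at 93520488 to 93526287 on the plus strand of chromosome 3 (ENSMUSG00000027907.4). It had 363.1, 272.9 and 366.9 TPM and a mean of 334.3 ± 53.2 TPM. Its fold was 1.78 on TMM-scaled counts and 1.345 in TPM, the smallest of the members in TPM. S100a10 was lowest in replicate 3, where S100a11 was highest, and their ratio in TPM, S100a10 over S100a11, was 0.909, 0.879 and 0.499. On TMM-scaled counts, however, S100a10 was nearly equal in replicates 2 and 3, at log2 ratios of -0.23 and -0.25. In TPM, S100a11 was nearly equal in replicates 1 and 3. The nearest profiles were those of Ift27, Zc3h8 and Dynll1 for S100a10 and of Zbtb20, Asap1 and Tab3 for S100a11. Within 0.25 of S100a10 lay 2517 genes, and of S100a11 1675.

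The S100a11 stretch is shown because it holds GGGCGG, the letters of a GC box, 3 times (capitals, positions -64, -52 and -24, searched on both strands). It is chr3:93520396-93520505 on the plus strand.
S100a11: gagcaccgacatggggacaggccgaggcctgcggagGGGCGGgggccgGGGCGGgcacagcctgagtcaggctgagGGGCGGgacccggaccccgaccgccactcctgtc
At least 1 GGGCGG was found in 35.7% of all promoters of the table. Among the other members in it, S100a9 had 1, at position -223.

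The annexins were abundant beside these partners. Of 12 annexin genes 9 reached 1 TPM in every library, with 2 of the 9, Anxa1 and Anxa2, over 2-fold. Anxa5 had the highest mean, with 564.8, 563.0 and 709.5 TPM. Anxa1 had 784.3, 342.5 and 402.4 TPM, Anxa2 594.4, 321.4 and 511.1 TPM, and Anxa6 109.9, 221.5 and 137.8 TPM in replicates 1, 2 and 3. Anxa2 exceeded S100a10 1.80-, 1.34- and 2.79-fold in TPM, in 3 of 3 libraries. Ahnak, a large scaffold protein that binds the S100A10 and annexin A2 complex, had 76.6, 142.6 and 86.4 TPM. The tissue plasminogen activator gene Plat had 0, 0 and 1 counts. Of 18 binding partners in all, 11 reached 1 TPM in every library, and 5 of the 11 differed more than 2-fold.

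The other single S100 genes were nearly silent. Of 8 more that were found, 0 were at 1 TPM in any library: S100a5, S100g and S100z had 0 counts, S100a3 and S100a7a each had 1, 0 and 0 counts, S100a14 had 1, 1 and 0, S100b 4, 0 and 0, and S100a16 1, 1 and 3 in replicates 1, 2 and 3. S100a2, added after its values were seen, had 0 counts. Of the 7 fused-type genes, whose proteins join an S100 domain to long repeats in skin, Tchh alone had counts, 5, 2 and 5. The members were listed with these levels known, so the divide is a description. The lowest member value was 12.3 TPM, for S100a8 in replicate 2, and the highest value of the other genes was 0.21 TPM, for S100a16 in replicate 3.

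Along the chromosome, from S100a1 to S100a10, the cluster runs over 3.054 Mb, chromosome 3 from 90511034 to 93564643, and holds 75 protein-coding genes. The 8 at 1 TPM or more in every library were the 8 S100 genes, and 0 of the other 67 reached it. S100a1, S100a13, S100a4, S100a6, S100a8 and S100a9 lie among 13 protein-coding genes within 184.7 kb. S100a11 and S100a10 lie beyond a gap of 2.825 Mb with 60 protein-coding genes, 57 of them with 0 counts in every library. S100a5 had 0 counts although its gene lies between S100a4 and S100a6, 1101 bases from S100a6. The highest of the others were the pseudogene Gm4202, at 11.8, 11.9 and 5.15 TPM, then Gm9774, at 3.63, 2.76 and 0.44 TPM, and S100a16.

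**Figure D4:**
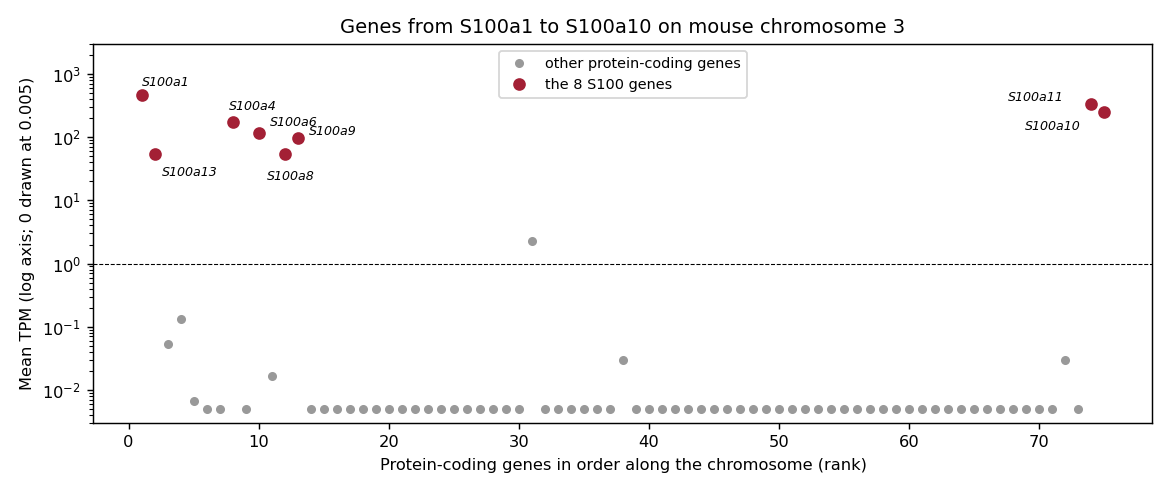
Mean TPM over 3 libraries, on a log axis, of the 75 protein-coding genes from S100a1 to S100a10 in their order along chromosome 3, with the 8 S100 genes in red and the others in grey; a mean of 0 is drawn at 0.005 and the dashed line is at 1 TPM. The S100 genes stand at both ends; the grey point above the line is Gm9774, whose level in replicate 3 was 0.44 TPM.

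For 5 of the members 1 transcript carried over 97% of the TPM in every library of the RSEM-format table, and S100a11 and S100a13 of these have no more than 1 annotated. S100a4, S100a6 and S100a9 were divided, and in each the 5′ end differed. S100a6-203 starts 423 bases downstream of S100a6-201 with another first exon, and both have the same 267 coding bases. S100a6-203 took 25.7%, 15.9% and 61.1% of the TPM of S100a6 in replicates 1, 2 and 3 in the RSEM-format table, and S100a6-201 took 73.2%, 84.1% and 38.2%. In the kallisto-format table, the share of S100a6-203 was 35.7%, 25.1% and 48.8%. Replicate 3 had the highest share of S100a6-203 in both tables, but S100a6-203 exceeded S100a6-201 there in the RSEM-format table alone. That library also had the fewest counts of the gene, 354.

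S100a4-202 lacks the first exon of S100a4-201, starts 1140 bases downstream and ends within its coding part. It took 1.00%, 0.704% and 34.1% of the TPM of S100a4 in replicates 1, 2 and 3 in the RSEM-format table, and 1.58%, 2.79% and 14.1% in the kallisto-format table. Both tables had the highest share in replicate 3, with values that differed over 2-fold between the tables. Of the 336 bases of S100a4-202, 250 are also exon of S100a4-201 and 86 are its own. The exons of S100a4 also overlap those of Gm42674 by 302 bases on the same strand, and Gm42674 had 0 counts; no other member shares exon bases with another gene.

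S100a9-202 starts 10 bases upstream of S100a9-201 and has the same 339 coding bases. Its share was 10.7%, 32.1% and 14.7% in the RSEM-format table and 11.9%, 32.3% and 14.7% in the kallisto-format table in replicates 1, 2 and 3. The transcripts have 10 and 3 bases of their own and share 509. Even so the tables gave nearly the same shares, with the highest in replicate 2, where S100a9 had 102 counts. Over the mean of the libraries both tables named the same leading transcript for 6 of the 6 members with more than 1 transcript, beside 90.4% of 6596 such genes at 10 TPM or more.

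**Figure D5:**
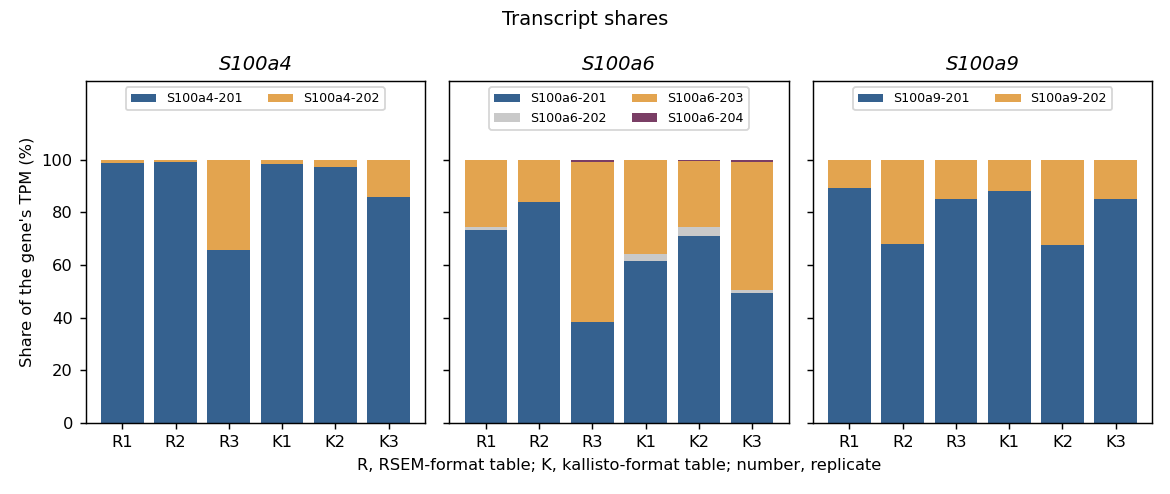
Share of the TPM of S100a4, S100a6 and S100a9 taken by each annotated transcript, in percent, in replicates 1 to 3 of the RSEM-format table (R1 to R3) and the kallisto-format table (K1 to K3). The share of S100a4-202 in replicate 3 is 34.1% in the first table and 14.1% in the second, while the bars of S100a9 are nearly alike in both.

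Gene levels of the 8 members were lower in the kallisto-format table in every library, though single transcripts such as S100a6-203 in replicate 1, at 63.4 and 59.7 TPM in the kallisto- and RSEM-format tables, went the other way. The ratio of its TPM to that of the gene table had a median over the 8 members of 0.720, 0.699 and 0.843 in replicates 1, 2 and 3, beside 0.755, 0.761 and 0.961 over all genes compared. Expected counts were whole numbers, within 0.005, in every library for 7 of 8 members, beside 69.2% of detected genes, and those of S100a11 were not. The pseudogene S100a11-ps, on chromosome 12, had 0 counts.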

How the data were processed

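Each of the 3 libraries had a gene table, an RSEM-format and a kallisto-format transcript table, on mm10 with GENCODE M21 per the deposited file lists. Expected counts, per the file headers, are likelihood estimates that need not be whole. The authors also deposited estimated counts for each transcript in kallisto format. The deposited TPM values are levels per effective transcript length. Aligner, versions and strand setting: not given in the sources used here.

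TMM factors (edgeR 4.0.16, R 4.3.3) scaled the counts, log2 values took a prior count of 0.5, and a library's ratio is to the geometric mean of the 2 others. Fold is highest over lowest library, on TMM-scaled counts unless TPM is named. With 1 group there was no contrast, so nothing was tested across genes; the order of levels was tested by exact sign flips. Counts of 0 allow 3 counts, a limit for counting error alone, since the sources used here name no molecular identifiers.

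The members and the 14 gene lists were chosen with earlier results of these data known. Results of the lists of dendritic, lymphoid, and erythroid, megakaryocyte and mast cell markers were 1 of 8, 1 of 10 and 2 of 10 genes at 1 TPM or more in every library. Genes named were taken from all members and other S100 genes, the 3 highest and the lowest of each other list, genes set for their role beside a member (annexins, receptors, partners, C/EBP factors, PU.1, Ly6g, Ngp, Ltf), the 3 protein-coding genes nearest in profile, direct neighbours and defining cell type markers. Plat, Ryr1, Ryr2, Lcn2, Padi4, Prtn3 and S100a2 were chosen after their values were seen. S100a7l2, on the list of other S100 genes, was not analysed here. Promoters (RefSeq, GRCm38.p6, 250 bases before to 50 after a start) matched 7 of 8 members; S100a10 is the other. Alternatives were other tables, scalings (DESeq2 1.42.0), prior counts, thresholds and libraries left out.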

Additional observations from a re-analysis of the deposited data

How the results depend on the processing

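No paired analysis was possible because there is 1 group. The number of S100 genes over 2-fold between libraries was 4, beside 33.3% of genes. It was 5 on total counts (34.3% of genes), on log2 TPM with pseudocount 1 (33.8%) and on kallisto-format counts (32.8%). With DESeq2 size factors (33.2%), prior count 2 (33.0%) or posterior mean counts (33.1%) it was 4. It was 6 at 1.5-fold (beside 64.1% of genes), and 3 to 4 with 1 library left out (beside 16.6% to 19.3% of genes). All 8 stayed at 1 TPM or more in each table and without each library. The highest library differed for 1 gene, on log2 TPM. Of the 7 neighbour pairs in the order of levels, 5 to 6 kept it without 1 library, 6 in the kallisto-format table and 5 on counts not divided by length. The mean of S100a11 was 252.4 TPM in the kallisto-format table, further from 334.3 TPM than the SD between libraries. The share of S100a8 with S100a9 was 6.02% to 13.2% without 1 library. At 10 TPM the neutrophil list kept 2 of 20 genes. The highest library was not recomputed with libraries left out, and the lowest library was not compared between settings. With 3 libraries of 1 group, no p could fall below 0.25.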

Other observations

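S100a7a, which had 1, 0 and 0 expected counts and 0.05, 0 and 0 TPM in replicates 1, 2 and 3, was listed with a posterior mean TPM of 28.8, 26.8 and 0.02 in the same gene tables. Its level in the kallisto-format table was below 1 TPM in every library. Ltf likewise had 1.33 TPM in replicate 2 and a posterior mean of 5.75 TPM. For the 8 S100 genes the columns differed little: S100a8 in replicate 2 had 12.3 TPM and a posterior mean of 11.9 TPM.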
